A study of Drosophila melanogaster with 10 samples.

Results

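The nuclear-encoded subunits of the mitochondrial respiratory chain and ATP synthase were described in Drosophila S2 cells, a blood-cell-like line from embryos, after RNAi knockdown of Elys (Elys-KD) and in control cells. Members were the genes whose FlyBase symbol starts with ND- (complex I), Sdh (SdhA to SdhD, complex II), UQCR- (complex III), COX followed by a digit (complex IV) or ATPsyn (complex V). The rule found 82 of 13937 genes: 39 of complex I, 4 of complex II, 9 of complex III, 15 of complex IV and 15 of complex V. Of these, 62 carry the name of a subunit and 20 carry that name with an L ending, which marks a second gene resembling the named one (L copies). A further 2 symbols under the rule, ND-30 and COX7CL, have identifiers outside the genes of the tables and were not analysed here.

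Of the 10 samples of the study, 4 measured poly(A+) RNA of S2 cells by sequencing, and the values below come from these libraries. Elys-KD cells (2 libraries) had received double-stranded RNA against Elys, a nucleoporin that also binds chromatin. Control cells (2 libraries) were the same line treated in the same way with double-stranded RNA against the bacterial gene LacZ. The treatment ran over several days with a repeat dose, both arms come from a single line, and knockdown leaves part of the transcript in place. The paper calls the 2 libraries of a group biological replicates, while the labels give only a replicate number. Separate cultures are not named, so p-values measure the spread between these libraries. The other 6 samples are DamID libraries of embryos and were not used here.

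Elys itself was at 4.96 and 4.55 TPM (a level per transcript length, scaled to a sum of 1000000 in each library) in Elys-KD libraries, against 28.3 and 30.2 TPM in control libraries, which is 16.3% of the control mean (log2 fold change -2.67, standard error 0.05, adjusted p = 1.3e-06 from edgeR). Estimated counts summed to 58200996 and 57622326 in Elys-KD libraries, against 68034643 and 61350395 in control libraries. Blood-cell markers fixed for the line were present except NimC1, which was listed at 0 in both Elys-KD libraries and at no more than 0.0087 TPM in controls. Markers of testis, fat body and muscle did not exceed 0.321 TPM in any library. Of 3 germ-line markers 1 was found, bam, with 46.2 and 43.2 TPM in Elys-KD libraries, against 53.4 and 54.8 TPM in control libraries. The 3 neuronal markers summed to 4.31 and 3.67 TPM in Elys-KD libraries, against 3.17 and 4.02 TPM in control libraries. Of the markers, Pxn (blood cell) and brp (neuron) rose and bam (germ line) fell, with log2 fold changes of 0.63, 1.30 and -0.31 (adjusted p = 0.0013, 0.0011 and 0.0024 from edgeR). In the same lists Hml (blood cell) and elav (neuron) had log2 fold changes of -0.24 and -0.29 and were not called (adjusted p = 0.223 and 0.0548 from edgeR). The part of these markers in the results was not tested. The fragment size implied by the tables differed between the groups: length minus effective length had a median over genes longer than 2000 bp of 184 and 184 bp in Elys-KD libraries, against 203 and 205 bp in control libraries. Subunit genes are short, with a median length of 682 bp against 1585 bp over all genes, so this difference changes their counts more than those of long genes. Fold changes are therefore given from estimated counts and, where it matters, from the same fit with each library's effective lengths as an offset.

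In the inner mitochondrial membrane, complexes I to IV pass electrons from NADH and succinate to oxygen, and complexes I, III and IV pump protons as they do so. Complex V, the ATP synthase, lets the protons flow back and makes ATP. Most subunits are encoded in the nucleus, translated in the cytoplasm and imported. A small set of core subunits of complexes I, III, IV and V is encoded by mitochondrial DNA and translated inside the organelle, and complex II has none. Each complex is thus assembled from the products of both genomes, complex II excepted.

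Of the 62 subunit genes, 61 were transcribed at 90 TPM or more and 1, ND-B8, was listed near 0. Levels were lowest in complexes I and II and higher in complexes III, IV and V. The median subunit of complex I stood at 206 TPM in Elys-KD cells and 209 TPM in control cells, and that of complex II at 109.6 and 113 TPM. In complex III the median was 519 TPM in Elys-KD cells and 567 TPM in control cells, in complex IV it was 818 and 806 TPM, and in complex V it was 752 and 777 TPM. Both groups thus gave the same order of the complexes by median, with complexes IV and V close together at the top. Within a complex, ND-B8 left out, the highest subunit exceeded the lowest 7.82-fold in complex I and between 2.63-fold and 3.70-fold in the other 4.

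**Figure D1:**
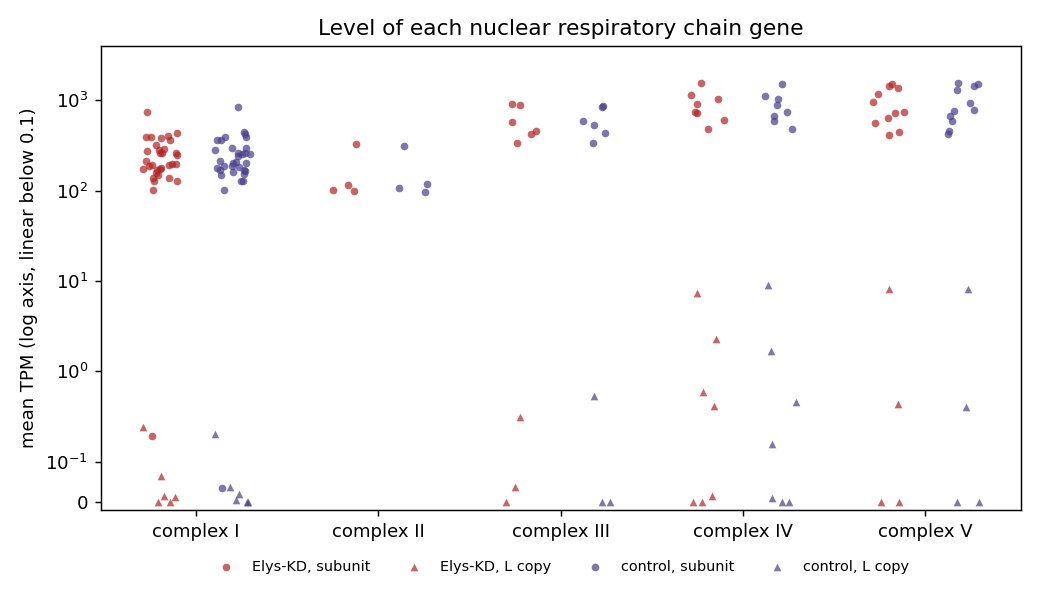
Mean TPM (y axis, logarithmic above 0.1 and linear below) of each of the 82 members in Elys-KD (red, left) and control cells (blue, right) by complex, with subunits as circles and L copies as triangles. Of 62 subunits, 61 lie at 90 TPM or more, and the 20 L copies and ND-B8 lie under 10 TPM.

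Complex I oxidises NADH. Its lowest subunit other than ND-B8 was ND-19, an accessory subunit, with 104 and 101 TPM in Elys-KD libraries, against 103 and 98.9 TPM in control libraries. Core subunits of its hydrophilic arm hold the flavin and the iron-sulphur centres, and 5 of them are given here. ND-49 is described below, and ND-30, a further core subunit, was not analysed. ND-75, the large iron-sulphur subunit, stood at 132 and 127 TPM in Elys-KD libraries, against 126 and 129.9 TPM in control libraries. ND-51, which binds the flavin and NADH, stood at 179.7 and 178 TPM in Elys-KD libraries, against 181 and 185 TPM in control libraries. ND-24, ND-20 and ND-23 lay between 156 and 206 TPM in every library. The log2 fold changes of these 5 core subunits lay between -0.07 and 0.00, with adjusted p values from 0.218 (ND-51) to 0.988 (ND-20). ND-MNLL, a small accessory subunit and the runner-up of the complex, stood at 433 and 448 TPM in Elys-KD libraries, against 441 and 457 TPM in control libraries, and its ranges overlapped.

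ND-B8 (FBgn0040705), an accessory subunit of the same complex, was at 0.0786 and 0.310 TPM in Elys-KD libraries, against 0.0683 and 0 TPM in control libraries. The next lowest subunit of complex I, ND-19, averaged over 100 TPM in both groups. This value is a listing near 0 for 1 gene model of an older annotation, and no fold is given for it.

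Complex II, succinate dehydrogenase, joins the citric acid cycle to the chain. SdhB, its iron-sulphur subunit, was the highest of its 4 genes, with 328 and 332 TPM in Elys-KD libraries, against 311 and 308 TPM in control libraries. Both Elys-KD values were above both control values, yet the log2 fold change of 0.07 was not called (standard error 0.04, adjusted p = 0.241 from edgeR). SdhA, the flavin subunit, stood at 102 and 95.3 TPM in Elys-KD libraries, against 92.8 and 98.8 TPM in control libraries. The membrane anchors had 113 and 120.4 TPM (SdhC) and 103 and 103 TPM (SdhD) in Elys-KD libraries, against 116 and 118 TPM (SdhC) and 108 and 108 TPM (SdhD) in control libraries. SdhD was lower in both Elys-KD libraries than in both controls, and its log2 fold change of -0.08 was not called either (adjusted p = 0.152 from edgeR).

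Complex III passes electrons from ubiquinol to cytochrome c. UQCR-Q was its most abundant subunit, with 894 and 934 TPM in Elys-KD libraries, against 854 and 859 TPM in control libraries (log2 fold change 0.11, adjusted p = 0.118 from edgeR). UQCR-6.4 had 884 and 904 TPM in Elys-KD libraries, against 861 and 809 TPM in control libraries (log2 fold change 0.10, adjusted p = 0.211 from edgeR). The core proteins UQCR-C1 and UQCR-C2 face the matrix and were the least abundant pair. UQCR-C1 had 339 and 333 TPM in Elys-KD libraries, against 330.2 and 342 TPM in control libraries. UQCR-C2 had 423 and 422 TPM in Elys-KD libraries, against 435 and 442 TPM in control libraries (log2 fold change -0.08, adjusted p = 0.118 from edgeR).

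Complex IV, cytochrome c oxidase, reduces oxygen. COX5A led it with 1556 and 1585 TPM in Elys-KD libraries, against 1510.45 and 1504 TPM in control libraries. COX8 had 1133 and 1131 TPM in Elys-KD libraries, against 1116 and 1094 TPM in control libraries. COX4, which in other species is an early partner of the mitochondrially encoded core, was nearly level, with 1014 and 1042 TPM in Elys-KD libraries, against 1029 and 1028 TPM in control libraries. COX5B, a zinc-binding subunit and the lowest of the complex, had 470.0 and 485 TPM in Elys-KD libraries, against 487 and 483 TPM in control libraries. None of these 4 was called by edgeR, with adjusted p values from 0.220 for COX5A to 0.992 for COX4.

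In complex V the highest means over the 4 libraries were those of ATPsynCF6, a subunit of the peripheral stalk, and ATPsyngamma, the central shaft, although in both control libraries ATPsynC exceeded ATPsyngamma. ATPsynCF6 had 1517 and 1543 TPM in Elys-KD libraries, against 1536 and 1538 TPM in control libraries. ATPsyngamma had 1429 and 1428 TPM in Elys-KD libraries, against 1448 and 1463 TPM in control libraries (log2 fold change -0.05, adjusted p = 0.215 from edgeR). ATPsynF, a small membrane subunit, was the lowest, with 403 and 417 TPM in Elys-KD libraries, against 423 and 415 TPM in control libraries.

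The 20 L copies stood apart from the genes they resemble. Of these, 17 were under 1 TPM on average and 6 had no count in any library (COX6CL, ATPsynCF6L, ATPsynGL, ND-20L, UQCR-14L and ND-B14.5AL). A count of 0 in a library allows up to 3 counts, which covers counting error only. The 3 copies at 1 TPM or more were ATPsynepsilonL, COX4L and COX5BL. ATPsynepsilonL had 8.62 and 7.88 TPM in Elys-KD libraries, against 8.17 and 8.34 TPM in control libraries. COX4L had 7.76 and 7.05 TPM in Elys-KD libraries, against 8.45 and 9.60 TPM in control libraries. COX5BL had 2.55 and 2.02 TPM in Elys-KD libraries, against 1.72 and 1.62 TPM in control libraries. Reads shared with the named gene could add to these values, since the counting can split reads between near-identical sequences. Against the gene each resembles, 19 of the 20 copies stood under 1% of its level, and ATPsynepsilonL stood at 1.63% of sun, the ATP synthase epsilon subunit. Many such copies in flies are known for expression in testis, and the 4 testis markers did not exceed 0.0837 TPM in any library. Only 6 copies had enough counts to be tested, and none of them was called (0 also at an unadjusted p under 0.05, and 0 with DESeq2). With effective lengths 1 copy, COX4L, was under an unadjusted p of 0.05 and 0 were called.

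Transcripts of most subunits stayed near their control level in Elys-KD cells. Of the 61 subunits above 90 TPM, 46 had a mean within 5% of the control mean and 56 within 10%, and the full range was -18.3 to 10.1%. The 95% intervals of their log2 fold changes lay between -0.42 and 0.25, and for 59 of the 61 the interval was within 1.25-fold of no change (58 of 61 with effective lengths). Of all 82 members, 67 passed the filter on low counts, namely these 61 subunits and 6 copies, and the other 15 held at most 10 counts in a library. Among the 67, 9 passed an adjusted p under 0.05 (13.4%), while 16.6% of the 9156 genes tested did. The 3 that rose are set against 8.07% of all genes tested that rose, and the 6 that fell against 8.56% that fell. In this fit the members' share called in either direction was thus close to that of the background, and somewhat below it. The median log2 fold change was -0.01 over the members and 0.00 over all genes tested. A further rule asked for mean TPM to differ over 1.5-fold as well, which 0 members met, against 3.19% of all genes tested (0 also with DESeq2, with limma on log2 TPM and at an unadjusted p).

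With effective lengths in the fit, 6 members passed (8.96%), which were the same 6 that fell, and 0 rose, against 16.8% of all genes tested, 8.33% higher and 8.46% lower. By the 1.5-fold rule 0 members passed with effective lengths, against 3.21% of all genes tested. The median of the members was then -0.04, and that of the 496 tested genes of at most 1000 bp and at least 100 TPM moved likewise, from 0.01 without effective lengths to -0.03 with them. Of these short abundant genes, 15.5% passed without effective lengths (39 higher and 38 lower) and 16.3% with them (25 higher and 56 lower). By TPM alone, 17 of the 67 members were higher in both Elys-KD libraries than in both controls and 24 were lower. In this way 37.2% of all genes tested were higher and 21.9% lower. Of the 496 short abundant genes, 176 were higher and 164 lower. Without overlap in either direction were 61.2% of the members, 59.1% of all genes tested and 68.5% of the short abundant genes.

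**Figure D2:**
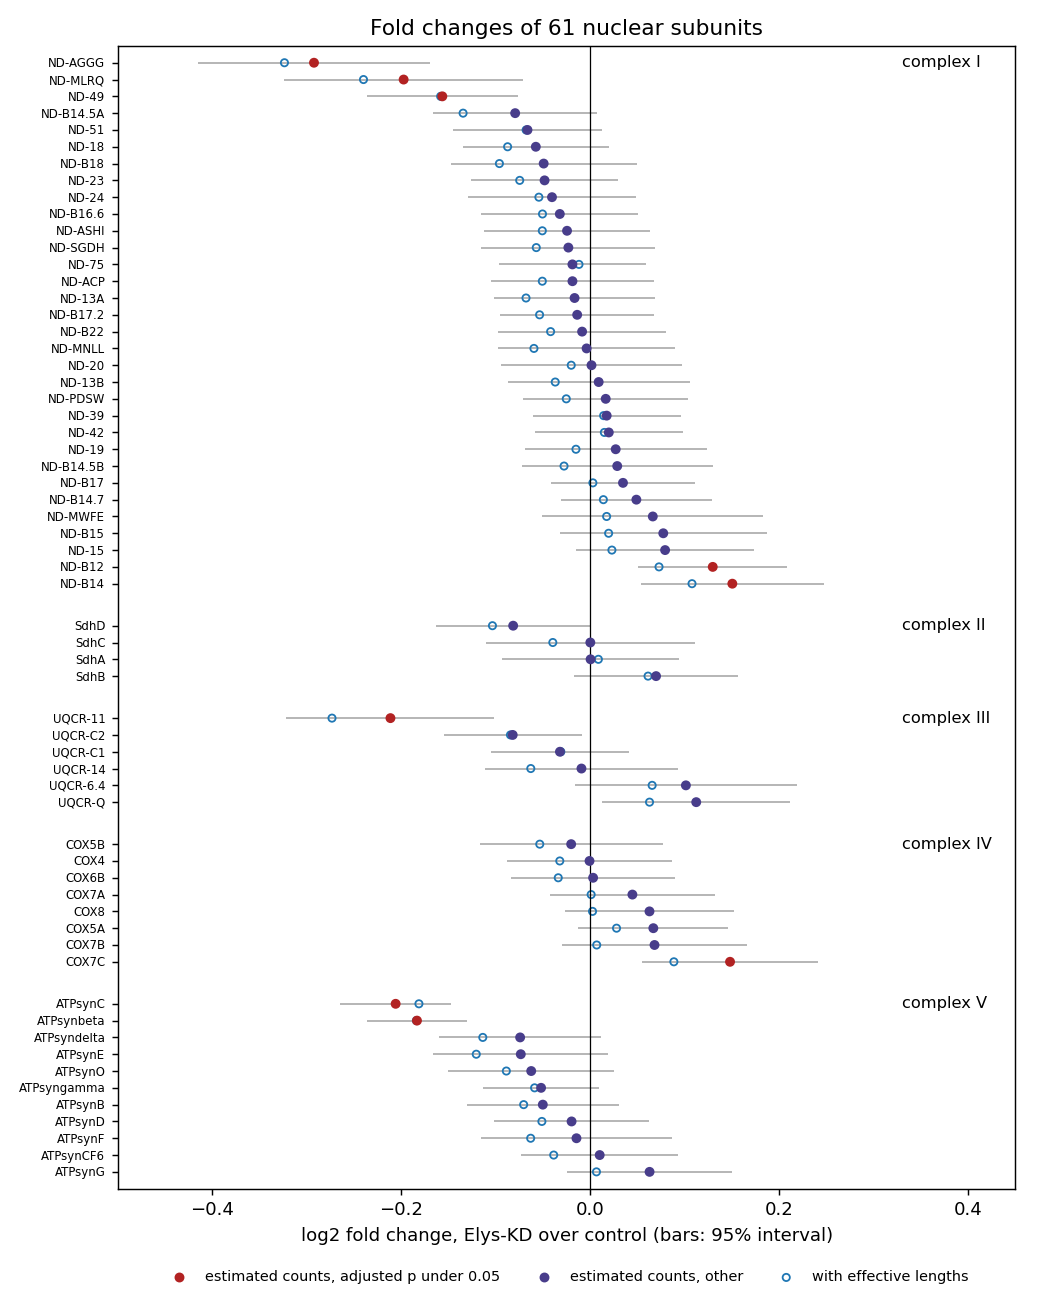
Fitted log2 fold change (x axis, Elys-KD over control) of 61 subunits by complex, with 95% intervals from 2 libraries per group. Filled points come from estimated counts (red where the adjusted p was under 0.05) and open circles from the fit with effective lengths. The filled points lie between -0.29 and 0.15, the 6 red points on the left keep their side and their call with effective lengths, and the 3 on the right lose the call.

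The 6 members that fell include a subunit of the soluble head and a subunit of the membrane ring of ATP synthase. ATPsynbeta (FBgn0010217), the catalytic subunit of the F1 head, had 1196 and 1176 TPM in Elys-KD libraries, against 1309 and 1326 TPM in control libraries. ATPsynC (FBgn0039830), which forms the rotating ring in the membrane, had 1387 and 1338 TPM in Elys-KD libraries, against 1497 and 1525 TPM in control libraries. In both genes the Elys-KD libraries were below the controls without overlap. The log2 fold changes were -0.18 for ATPsynbeta (standard error 0.02, adjusted p = 0.0031 from edgeR) and -0.21 for ATPsynC (standard error 0.02, adjusted p = 0.0029 from edgeR). Both calls stood in each of 17 alternatives.

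The mix of transcripts of ATPsynC also differed between the groups. Its mean transcript length, weighted by the estimated level of each transcript, was 1066 and 1073 bp in Elys-KD libraries, against 1093 and 1092 bp in control libraries, a mean 2.11% shorter. Among the 67 members tested, ATPsynC and ATPsynepsilonL were the 2 whose mean length differed by over 1% without overlap (2.99%), against 7.34% of all genes tested. ATPsynepsilonL stood at 476 and 482 bp in Elys-KD libraries, against 490.0 and 490.0 bp in control libraries. Which transcript of ATPsynC changed was not tested.

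ND-AGGG (FBgn0058002), the fly counterpart of the human accessory subunit NDUFB2 of complex I, showed the largest fall among the members tested. It had 134 and 144 TPM in Elys-KD libraries, against 172 and 169 TPM in control libraries (log2 fold change -0.29, standard error 0.05, adjusted p = 0.0117 from edgeR), and it was called in each of 17 alternatives. ND-49 (FBgn0039909), a core subunit near the quinone site, had 139 and 139 TPM in Elys-KD libraries, against 151 and 152 TPM in control libraries (log2 fold change -0.16, standard error 0.03, adjusted p = 0.0241 from edgeR). ND-49 was the only 1 of the 6 hydrophilic core subunits measured that was called. Its call was lost without control replicate 1 (adjusted p = 0.143), control replicate 2 (0.128) or Elys-KD replicate 1 (0.0725) in the same edgeR test.

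ND-MLRQ (FBgn0052230) is the fly counterpart of human NDUFA4, a protein first placed in complex I and later found in complex IV, and had the highest level of the complex I list. It stood at 726 and 751 TPM in Elys-KD libraries, against 880.3 and 825 TPM in control libraries (log2 fold change -0.20, standard error 0.05, adjusted p = 0.0476 from edgeR). The call was also lost with library totals alone (adjusted p = 0.0703 from edgeR) and with no filter on low counts (0.0770). Without control replicate 1 the log2 fold change was -0.13 (adjusted p = 0.218 from edgeR), and without Elys-KD replicate 1 it was -0.15 (adjusted p = 0.108 from edgeR). UQCR-11 (FBgn0260008), the counterpart of the hinge protein of complex III, had 449.8 and 463 TPM in Elys-KD libraries, against 552 and 527 TPM in control libraries (log2 fold change -0.21, standard error 0.05, adjusted p = 0.0255 from edgeR). Without control replicate 1 it was -0.16 (adjusted p = 0.112 from edgeR), and without Elys-KD replicate 1 it was -0.17 (adjusted p = 0.0578 from edgeR). In all 6 genes that fell, the 2 Elys-KD values were below both control values, as in 21.9% of all genes tested. The 6 were picked by a test on these same libraries, so this separation is not further support.

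The 3 members that rose were small accessory subunits. ND-B12 (FBgn0034645) of complex I had 392 and 385 TPM in Elys-KD libraries, against 361 and 362 TPM in control libraries (log2 fold change 0.13, adjusted p = 0.0414 from edgeR). ND-B14 (FBgn0033570) of complex I had 316 and 330.1 TPM in Elys-KD libraries, against 294 and 293 TPM in control libraries (log2 fold change 0.15, adjusted p = 0.0490 from edgeR). COX7C (FBgn0040773) of complex IV had 727 and 735 TPM in Elys-KD libraries, against 679 and 666 TPM in control libraries (log2 fold change 0.15, adjusted p = 0.0455 from edgeR). With effective lengths the log2 fold changes were 0.07, 0.11 and 0.09 in this order and none was called (adjusted p = 0.175, 0.127 and 0.168 from edgeR). Their TPM values, which already divide by effective length, did not overlap between the groups. Of all genes tested, 37.2% were likewise higher in both Elys-KD libraries than in both controls. The 3 were picked by a test on these same libraries, so this separation is not further support. With DESeq2 2 members were called higher, without ND-B12 (adjusted p = 0.0667). The count of 3 was also 0 without control replicate 1, without control replicate 2 or without Elys-KD replicate 2.

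**Figure D3:**
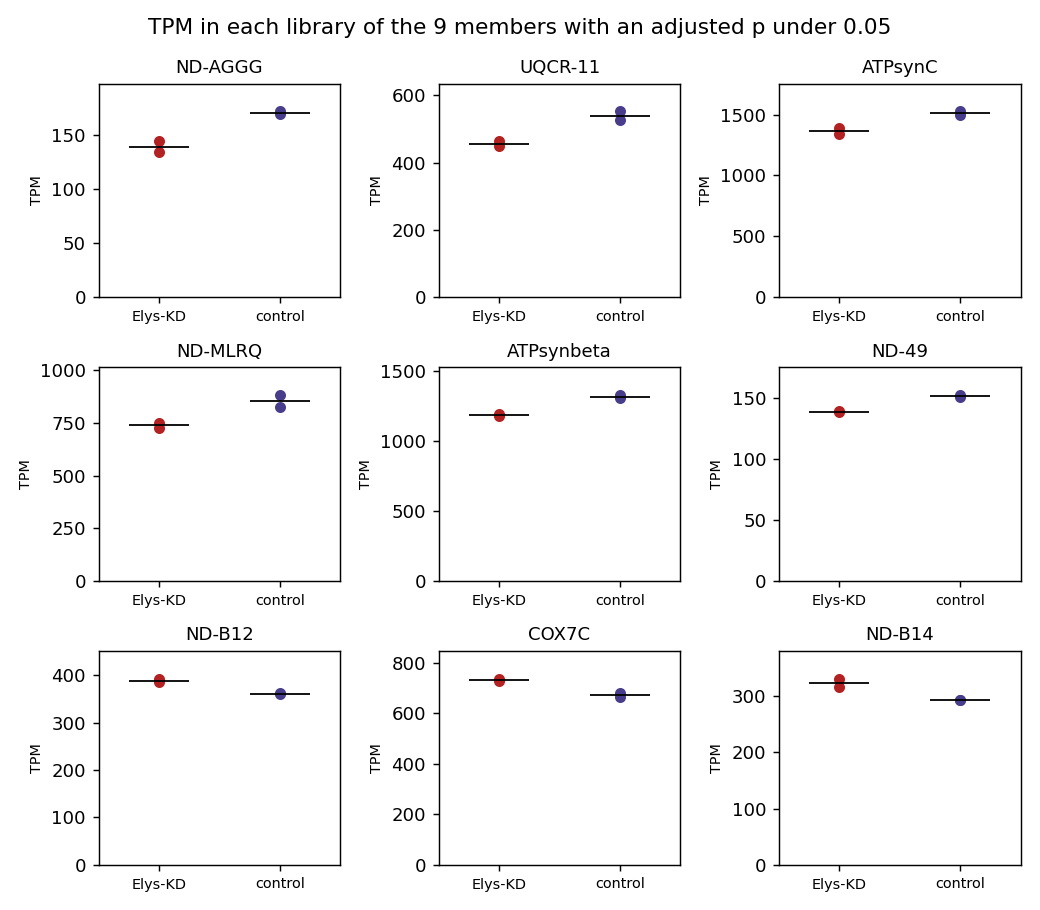
TPM (y axis, from 0) in each library of the 9 members with an adjusted p under 0.05, with Elys-KD (red, left) and control (blue, right) and a line at each mean of 2 libraries. The groups do not overlap in any panel, for genes picked by a test on these same libraries. The differences are small beside the levels, for example 1387 and 1338 TPM against 1497 and 1525 TPM for ATPsynC.

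By complex, 3 subunits fell and 2 rose of 32 tested in complex I, 0 were called of 4 in complex II, 1 fell of 6 in complex III, 1 rose of 8 in complex IV and 2 fell of 11 in complex V. These counts stand beside 8.07% of all genes tested that rose and 8.56% that fell, and each rests on few genes. In complex V, 7 of the 11 subunits were below both controls in TPM and 1, ATPsynG, was above, where 21.9% of all genes tested were below and 37.2% above. Its median log2 fold change was -0.05 (-0.07 with effective lengths). In complex IV, 5 of 8 were above both controls and 0 below, beside the same shares, and the median was 0.05 (0.00 with effective lengths). Summed over its subunits, complex V had 10001.5 and 10027 TPM in Elys-KD libraries, against 10404 and 10476 TPM in control libraries, a mean 4.08% lower. Complex IV had 7125 and 7249.6 TPM in Elys-KD libraries, against 7038 and 6983 TPM in control libraries, a mean 2.53% higher. Complex I had 8066 and 8187 TPM in Elys-KD libraries, against 8279 and 8234 TPM in control libraries, a mean 1.57% lower. Most of this difference came from ND-MLRQ, at a mean of 738 TPM in Elys-KD cells and 853 TPM in control cells. Its human counterpart was later found in complex IV, and sums and counts with ND-MLRQ in complex IV were not computed. Complex II had 645 and 650.2 TPM in Elys-KD libraries, against 628 and 632 TPM in control libraries, a mean 2.77% higher. For these 4 sums the exact permutation test gave p = 0.33, the smallest a two-sided test of 2 against 2 allows, and for complex III, whose sums overlapped, it gave p = 1.

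The mRNAs of the mitochondrial genome changed much more. All 13 fell in Elys-KD cells by edgeR (100% of 13, against 8.56% of all genes tested). The 13 lie on the same genome, so they do not count as 13 independent genes. For each the 2 Elys-KD values were below both controls, where 21.9% of all genes tested were below in this way. With DESeq2 11 of the 13 were called, without mt:ND4L (adjusted p = 0.0623) and mt:ATPase8 (adjusted p = 0.120). Their median log2 fold change was -0.55 with or without effective lengths, beside -0.01 over the nuclear members, and 6 of the 13 also passed the 1.5-fold rule. Their sum was 9019 and 8988 TPM in Elys-KD libraries, against 12412 and 12786 TPM in control libraries, a mean 28.5% lower. The nuclear members summed to 29401 and 29762 TPM in Elys-KD libraries, against 29982 and 29892 TPM in control libraries, a mean 1.19% lower. Mitochondrial mRNA thus stood at 0.307 and 0.302 of the nuclear sum in Elys-KD libraries, against 0.414 and 0.428 in control libraries, a mean 27.7% lower (exact permutation test, p = 0.33 for each of the 3, the smallest possible). Libraries were made from RNA bound to oligo(dT), so these are levels of polyadenylated mitochondrial RNA relative to all other polyadenylated RNA. In bulk RNA, fewer cells of a type and less RNA per cell cannot be told apart.

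**Figure D4:**
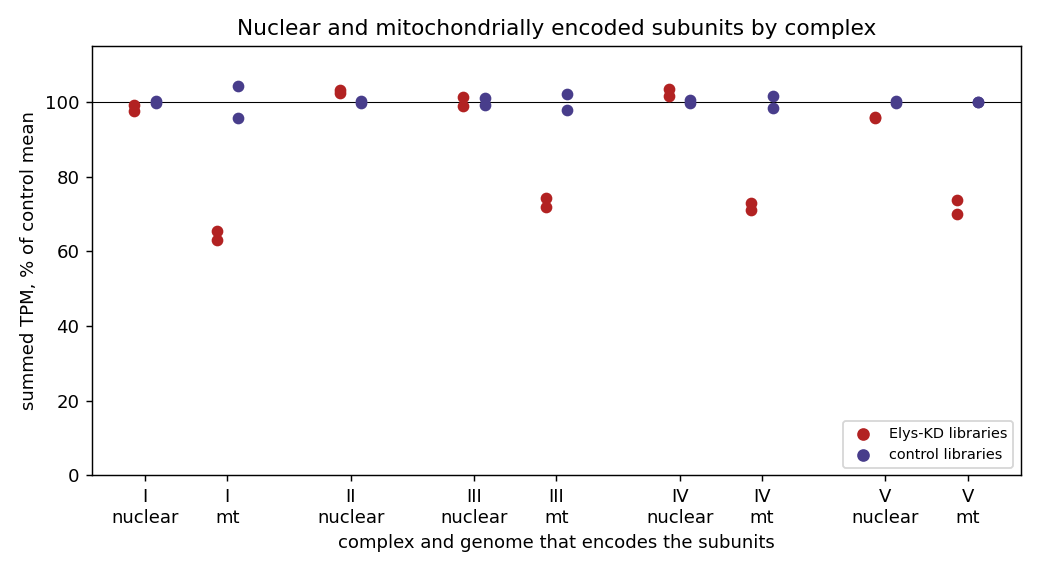
Summed TPM of the nuclear and the mitochondrially encoded (mt) subunits of each complex, as a percentage of the control mean (y axis, from 0), with 1 point per library, Elys-KD red and left, control blue and right. Nuclear sums of Elys-KD libraries lie within 5% of 100, and mitochondrial sums lie 27.0 to 35.7% below it on average.

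Mitochondrial mRNA was lower in each complex that holds mitochondrial subunits, and the mean difference was larger in complex I than in complexes III, IV and V, which was not tested. For complex IV, mt:CoI, mt:CoII and mt:CoIII, its catalytic core, summed to 4321 and 4215 TPM in Elys-KD libraries, against 5829 and 6033 TPM in control libraries, a mean 28.04% lower. For complex V, mt:ATPase6 and mt:ATPase8 summed to 2684 and 2831 TPM in Elys-KD libraries, against 3830.4 and 3837 TPM in control libraries, a mean 28.1% lower. For complex III, mt:Cyt-b had 1329.5 and 1283 TPM in Elys-KD libraries, against 1752 and 1827 TPM in control libraries, a mean 27.0% lower. For complex I, the 7 ND mRNAs summed to 684 and 659 TPM in Elys-KD libraries, against 1000.3 and 1089 TPM in control libraries, a mean 35.7% lower. Each complex thus had less mitochondrial mRNA in both Elys-KD libraries, whereas its nuclear sum moved by at most 4.08%.

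Among single mitochondrial mRNAs the smallest fall was that of mt:CoI, the subunit that binds oxygen, with 856 and 783 TPM in Elys-KD libraries, against 971 and 1040.01 TPM in control libraries (log2 fold change -0.33, adjusted p = 0.0033 from edgeR). The most abundant was mt:ATPase6, part of the proton channel, with 2626 and 2774 TPM in Elys-KD libraries, against 3751 and 3757 TPM in control libraries (log2 fold change -0.47, adjusted p = 0.00067 from edgeR). mt:ND2 fell most among those with many counts, with 9.86 and 11.1 TPM in Elys-KD libraries, against 34.5 and 42.7 TPM in control libraries (log2 fold change -1.89, adjusted p = 0.00013 from edgeR). The falls of these 3 mRNAs in mean TPM ranged from 18.5% (mt:CoI) to 72.8% (mt:ND2), with no overlap between the groups. mt:ND6 and mt:ND4L were low in all libraries and spread widely within Elys-KD. mt:ND6 had 1.63 and 3.77 TPM in Elys-KD libraries, against 11.5 and 9.98 TPM in control libraries. Its fall was the largest of the 13 (log2 fold change -1.96, standard error 0.34, adjusted p = 0.0113 from edgeR). mt:ND4L had 6.69 and 15.64 TPM in Elys-KD libraries, against 32.5 and 30.9 TPM in control libraries. The calls of mt:ND4L (log2 fold change -1.48, adjusted p = 0.0314 from edgeR) and mt:ATPase8 (-0.48, adjusted p = 0.0470 from edgeR) were lost without either control library, with adjusted p values of 0.0533 and 0.0697 for mt:ND4L and 0.180 and 0.128 for mt:ATPase8. For mt:ATPase8 the call was also lost without either Elys-KD library (adjusted p = 0.110 and 0.109 from edgeR) and with library totals alone (0.0552). With no filter on low counts both calls were lost (adjusted p = 0.0684 for mt:ND4L and 0.0922 for mt:ATPase8 from edgeR). Mitochondrial genes lie end to end, and some overlap on the same RNA, so counts of such neighbours can be shared.

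Some respiratory chain subunits have symbols outside the rule. Of 10 listed, 8 were found and 7 were tested, and 1 was called (14.3%), against 16.6% of all genes tested. This was blw, the alpha subunit that sits beside ATPsynbeta in the F1 head, which fell. It had 710.3 and 677 TPM in Elys-KD libraries, against 726 and 768 TPM in control libraries (log2 fold change -0.14, adjusted p = 0.0190 from edgeR). Among the 6 others, NP15.6 of complex I had the largest difference, with 366 and 374 TPM in Elys-KD libraries, against 340.4 and 346 TPM in control libraries (log2 fold change 0.12, adjusted p = 0.0747 from edgeR). RFeSP, the Rieske iron-sulphur protein, and Cyt-c1, the cytochrome c1 of complex III, were not called (log2 fold changes -0.03 and -0.09).

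Of assembly factors and carriers, 9 were listed, 8 were tested and 1 was called, which fell (12.5%, against 16.6% of all genes tested). This was sesB, the ADP/ATP translocase that exchanges the product of ATP synthase for ADP and shares part of its locus with Ant2, with 1190.4 and 1160.4 TPM in Elys-KD libraries, against 1355 and 1381 TPM in control libraries (log2 fold change -0.25, standard error 0.02, adjusted p = 0.00081 from edgeR). porin, the channel of the outer membrane, had 567 and 554 TPM in Elys-KD libraries, against 549 and 567 TPM in control libraries. Surf1 and Scox, needed to assemble complex IV, had log2 fold changes of 0.02 and -0.10 and were not called. Of 12 enzymes of the citric acid cycle listed, 10 were tested and 1 was called (10%, against the same 16.6%). This was kdn, the citrate synthase, which fell. It had 225 and 215 TPM in Elys-KD libraries, against 239 and 246.5 TPM in control libraries (log2 fold change -0.18, adjusted p = 0.0116 from edgeR). With effective lengths Idh3g, a subunit of isocitrate dehydrogenase, also rose (log2 fold change 0.20, adjusted p = 0.0161, and 0.14 with adjusted p = 0.0603 without effective lengths, both from edgeR). Called with effective lengths were thus 2 of the 10 enzymes (20%), against 16.8% of all genes tested.

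Ribosomal protein genes, another large set of nuclear genes whose products form complexes, were counted in the same fits. Of the 71 mitochondrial ribosomal protein genes, encoded in the nucleus and needed to translate the 13 mitochondrial mRNAs, 1 rose and 1 fell (2.82% called, median log2 fold change -0.03), and with effective lengths 0 rose and 3 fell. Of 83 cytoplasmic ribosomal protein genes tested, 4 rose and 4 fell (9.64% called, median 0.02), and with effective lengths 0 rose and 5 fell. In both lists, as among the members, 0 genes were called higher with effective lengths. With them 8.33% of all genes tested were called higher and 8.46% lower, and of the 496 short abundant genes 25 were higher. Without effective lengths 16.6% of all genes tested were called, 8.07% higher and 8.56% lower.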

How the data were processed

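Poly(A+) RNA of S2 cells (2 Elys-KD and 2 control libraries) was sequenced by the authors as paired-end reads. Per the paper's methods, reads were mapped uniquely to dm3/R5 and counted per gene of a FlyBase release 5 annotation with Salmon. The deposited tables hold an estimated count of fragments per gene, not normalized, and the TPM the authors computed beside it, which sums to 1000000 in each library. The gene length and effective length columns deposited are other values, in bp. Strand use in counting is not given in the sources used here.

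Gene symbols came from a FlyBase name table and matched 13389 of 13937 genes. Members, lists and alternatives were chosen with earlier results of these data known. Counts were rounded and tested in R 4.3.3 with edgeR 4.0.16 (TMM, filterByExpr, glmQLFit and glmQLFTest, Benjamini-Hochberg adjustment over 9156 genes tested), with DESeq2 1.42.0 and limma 3.58.1 on log2(TPM + 1) as alternatives. Standard errors are the size of the log2 fold change divided by the square root of F. "Called" means an adjusted p under 0.05. The effective length offset followed tximport. Summed TPM was compared by a two-sided exact permutation test. Other alternatives were the size factors, the filter, the fold rule, a replicate block and leaving out each replicate. Named genes were the called members, the 2 highest and the lowest of each complex, core subunits, L copies, mitochondrial mRNAs and listed pathway genes. The fits were tested on simulated data. Totals of 57622326 to 68034643 counts leave counting error small for members above 90 TPM. Tables used Python 3.11.15, pandas 2.3.3, NumPy 2.4.6 and SciPy 1.17.1, and plots Matplotlib 3.10.9. DamID domains and sequences were not used here.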

Additional observations from a re-analysis of the deposited data

How the results depend on the processing

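With 2 libraries per group, a single library decides several calls. The 9 members called became 5 with no filter on low counts, 4 with a replicate block, and 3 to 6 when 1 library was left out (3 without control replicate 1, 5 without control replicate 2). The count of 3 that rose became 0 with effective lengths, with no filter and with the block, and 0 to 3 with 1 library left out. Without Elys-KD replicate 1 the 3 were COX7C, ND-B14 and UQCR-Q, of which 2 are among the 3 of all libraries. With the block the calls of ND-49 (adjusted p = 0.0936, and 0.0889 with effective lengths as well), ND-MLRQ (0.0681) and mt:ATPase8 (0.0725) were lost in edgeR. The count of 6 that fell became 3 to 6 with 1 library left out (3 without control replicate 1 or Elys-KD replicate 1). With effective lengths and the block, chosen after seeing the data, 5 members were called and 0 rose. With effective lengths and 1 library left out, also chosen after seeing the data, 3 to 10 were called, 0 to 1 rose, 3 to 10 fell, and the members' median lay between -0.07 and -0.02 (-0.073 without Elys-KD replicate 2 and -0.053 without control replicate 2). A fold rule of 1.2 gave 1 member by both rules in place of 0.

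The mitochondrial median of -0.55 stayed negative in each alternative run: -0.55 with effective lengths, with effective lengths and the block, and with no filter, -0.52 with library totals alone and with limma, -0.59 to -0.50 with 1 library left out, and with effective lengths as well -0.63 and -0.57 without Elys-KD replicate 1 and 2 and -0.61 and -0.52 without control replicate 1 and 2. After scaling counts by TMM library sizes the members' summed ratio was 0.969, against 0.988 from TPM. Same-numbered libraries deviated with a correlation of -0.09 across 9156 genes. With 2 libraries per group this cannot tell whether same-numbered libraries shared a culture or batch, and the labels give only a number. Over 153 alternatives of the 9 called members, 103 kept the call, 50 lost it and 0 reversed. ND-AGGG, ATPsynC and ATPsynbeta were called in each of 17. The causes were not tested.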
